A study of Mus musculus with 4 samples.

Results

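The genes described here are 53 neuronal transcription factors outside the homeobox class, taken by symbol from a table of 55471 genes: basic helix-loop-helix (bHLH), EBF, NFI, large MAF, SOX and forkhead factors, and the BCL11, MYT and INSM zinc fingers. They fall into 12 families by structure and role. All 53 were found once in the table and had at least 1 count, and 51 passed the filter on low counts, the exceptions being Ptf1a and Foxn4.

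RNA came from amacrine cells, interneurons of the inner retina that are mostly inhibitory, of C57BL6 mice aged postnatal days 6 to 7. Every animal carried Gbx2-CreERT2-IRES-EGFP, in which the Gbx2 locus drives a Cre recombinase activated by tamoxifen and also EGFP, and Ai9, a reporter that leaves Cre-exposed cells and their progeny red with tdTomato. All sorted cells were tdTomato-positive, and they were split into GFP-positive cells (replicates 2 and 3), which carried EGFP at the time of sorting, and GFP-negative cells (replicates 2 and 6). Each RNA sample was made from 750 to 2500 cells, and the 4 libraries held 41040667 to 44689917 counts. Paired values below follow the order of these replicates. The n is 2 libraries per fraction, except in fits that leave out a library, where that fraction has no replicate.

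The sort was visible in Gbx2, which had 602 and 496 CPM (counts relative to each library's size after TMM scaling) in GFP-positive cells, against 28.7 and 55.5 CPM in GFP-negative cells. All 13 amacrine markers examined had counts in each library, summing to 3140 and 2161 CPM in GFP-positive cells, against 4789 and 6750 CPM in GFP-negative cells. Rod photoreceptor RNA was also present. The 16 rod markers, none at 0 in any library, summed to 10743 and 17815 CPM in GFP-positive cells, against 9420 and 2584 CPM in GFP-negative cells. GFP-positive replicate 3 thus held the most rod RNA and GFP-negative replicate 6 the least, and values that move in this order are marked as such below. In RNA from pooled cells, fewer cells of a type and less RNA per cell cannot be told apart.

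bHLH factors bind DNA as dimers at a short motif called the E-box, CANNTG, where N is any base. Proneural and neuronal bHLH factors such as Neurod1 pair with the broadly expressed E proteins, and these pairs switch on neuronal genes. Id proteins have the dimer domain but no DNA-binding region, so they hold E proteins away from DNA. Hes1, Hes5 and Hey1, targets of Notch signalling, repress proneural genes. EBF, NFI, SOX and forkhead factors act alongside them in the birth and typing of retinal neurons and glia.

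Promoter sequence is shown for the members that had an unadjusted p under 0.05 (below), a single entry in the RefSeq promoter table and no annotated exon in the window. These are Id4, whose change passed the adjusted threshold, and Bhlhe23 and Sox11. Each run is the 250 bases before the RefSeq start, 5′ to 3′ on the gene's strand, in build GRCm38.p6, with E-box letters in capitals.
Id4, chr13:48260866-48261115, plus strand: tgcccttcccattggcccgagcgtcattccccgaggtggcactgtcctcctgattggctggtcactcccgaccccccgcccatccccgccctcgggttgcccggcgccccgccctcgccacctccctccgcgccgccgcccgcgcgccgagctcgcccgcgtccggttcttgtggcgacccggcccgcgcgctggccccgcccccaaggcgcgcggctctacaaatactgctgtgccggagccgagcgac
Bhlhe23, chr2:180776901-180777150, minus strand: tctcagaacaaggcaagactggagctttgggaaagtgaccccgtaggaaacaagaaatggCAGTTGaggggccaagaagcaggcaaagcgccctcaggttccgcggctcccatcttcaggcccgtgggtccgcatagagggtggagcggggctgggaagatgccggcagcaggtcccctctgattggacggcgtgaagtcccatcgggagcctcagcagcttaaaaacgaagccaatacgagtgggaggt
Sox11, chr12:27342719-27342968, minus strand: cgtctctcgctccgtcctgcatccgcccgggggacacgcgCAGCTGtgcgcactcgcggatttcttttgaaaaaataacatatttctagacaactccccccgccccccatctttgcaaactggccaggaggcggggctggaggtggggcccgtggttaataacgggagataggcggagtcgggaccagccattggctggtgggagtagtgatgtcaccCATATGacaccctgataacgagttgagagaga
The Bhlhe23 window held 1 E-box, whose first base lay 190 bases before the start. Sox11 held 2, at 210 and 32 bases before the start. No CANNTG stood in the Id4 window, which says only that these letters are not in it. CANNTG reads the same on both strands, and 66.2% of the 32851 promoter windows of this length in the table held at least 1. Among members, 41 of 60 entries, from 39 genes, did so.

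By level per exonic length (TPM, in which counts per exonic base are set to the same total in each library), the members spanned a wide range. On average over the 4 libraries, 10 stood at 100 TPM or more, 24 at 10 to under 100 TPM, 15 at 1 to under 10 TPM and 4 below 1 TPM. In GFP-positive cells the most abundant were Neurod1 (1325 TPM), Sox4 (814 TPM), Neurod4 (338 TPM), Insm1 (320 TPM), Hes6 (318 TPM) and Nhlh2 (271 TPM). In GFP-negative cells they were Id4 (757 TPM), Neurod1 (556 TPM), Sox4 (415 TPM), Bhlhe22 (247 TPM), Neurod4 (190.1 TPM) and Id2 (164 TPM). Id4 was thus first in GFP-negative cells and seventh in GFP-positive cells. In GFP-positive cells the library values of Neurod4 (350.2 and 326 TPM), Insm1 (288 and 352 TPM) and Hes6 (268 and 368 TPM) overlapped, so these neighbours were not told apart, nor was Nhlh2 (299 and 243 TPM) from Insm1 and Hes6. In GFP-negative cells the values of Neurod1 (972 and 140.3 TPM) spanned those of Id4 (662 and 851 TPM). They also spanned Sox4 (448 and 382 TPM), Bhlhe22 (220 and 275 TPM) and Id2 (162 and 167 TPM). Neurod4 (289 and 91.3 TPM) spanned Bhlhe22 and Id2, so Neurod1 and Neurod4 were not told apart from these genes in rank.

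**Figure D1:**
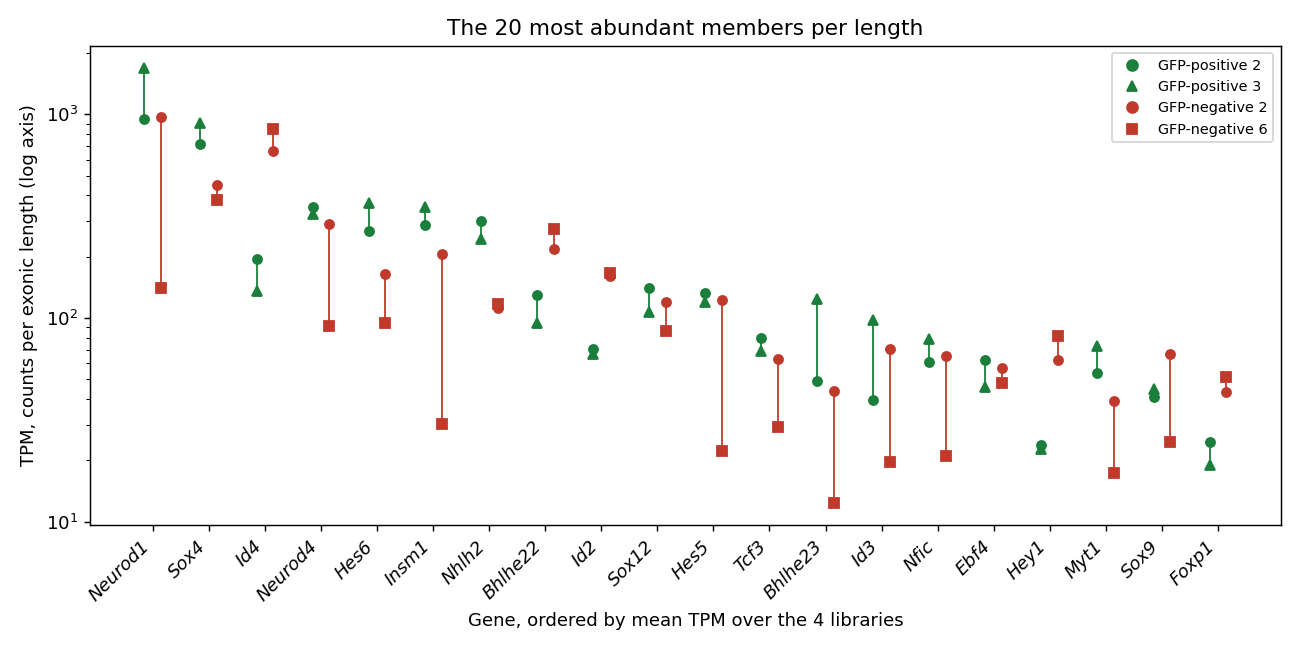
Level per exonic length (TPM, log axis) of the 20 most abundant members in each library, with GFP-positive libraries in green left of GFP-negative libraries in red and a line joining the libraries of a fraction. Neurod1, Insm1 and Neurod4 spread widely between the GFP-negative libraries, while Id4 separates the fractions.

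Differences between the fractions were tested for all 17940 genes that passed the filter, with edgeR's quasi-likelihood test and Benjamini-Hochberg adjustment, and log2 fold changes are GFP-positive minus GFP-negative. Of the 51 members tested, 2 were called at an adjusted p under 0.05, where 1.1% of all genes tested were. Both, Maf and Id4, fell in GFP-positive cells, as did 0.87% of all genes tested. None rose, where 0.234% of all genes tested did. DESeq2 called 1 member higher, Nhlh2, and 10 lower, where it called 208 genes higher and 579 lower of the 17940 tested. At an unadjusted p under 0.05 the members numbered 11 lower, where the share over all genes tested was 7.33%, and 5 higher, where it was 5.24%. The median log2 fold change was 0.59 over members and 0.04 over all genes tested. Positive values were held by 35 members and negative ones by 16, where 9408 of all 17940 genes tested were positive. Among marker genes, 16 of 16 for rods, 10 of 12 for bipolar cells and 2 of 13 for amacrine cells were positive. CPM ranges of the fractions did not overlap for 30 members, against 43.8% of all genes tested: GFP-positive was higher for 18 (22.5% of all genes) and lower for 12 (21.3% of all genes). With 2 libraries against 2, the smallest p that an exact two-sided permutation test can give for one gene is 0.333, and the calls therefore depend on the spread that edgeR estimates over all genes.

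**Figure D2:**
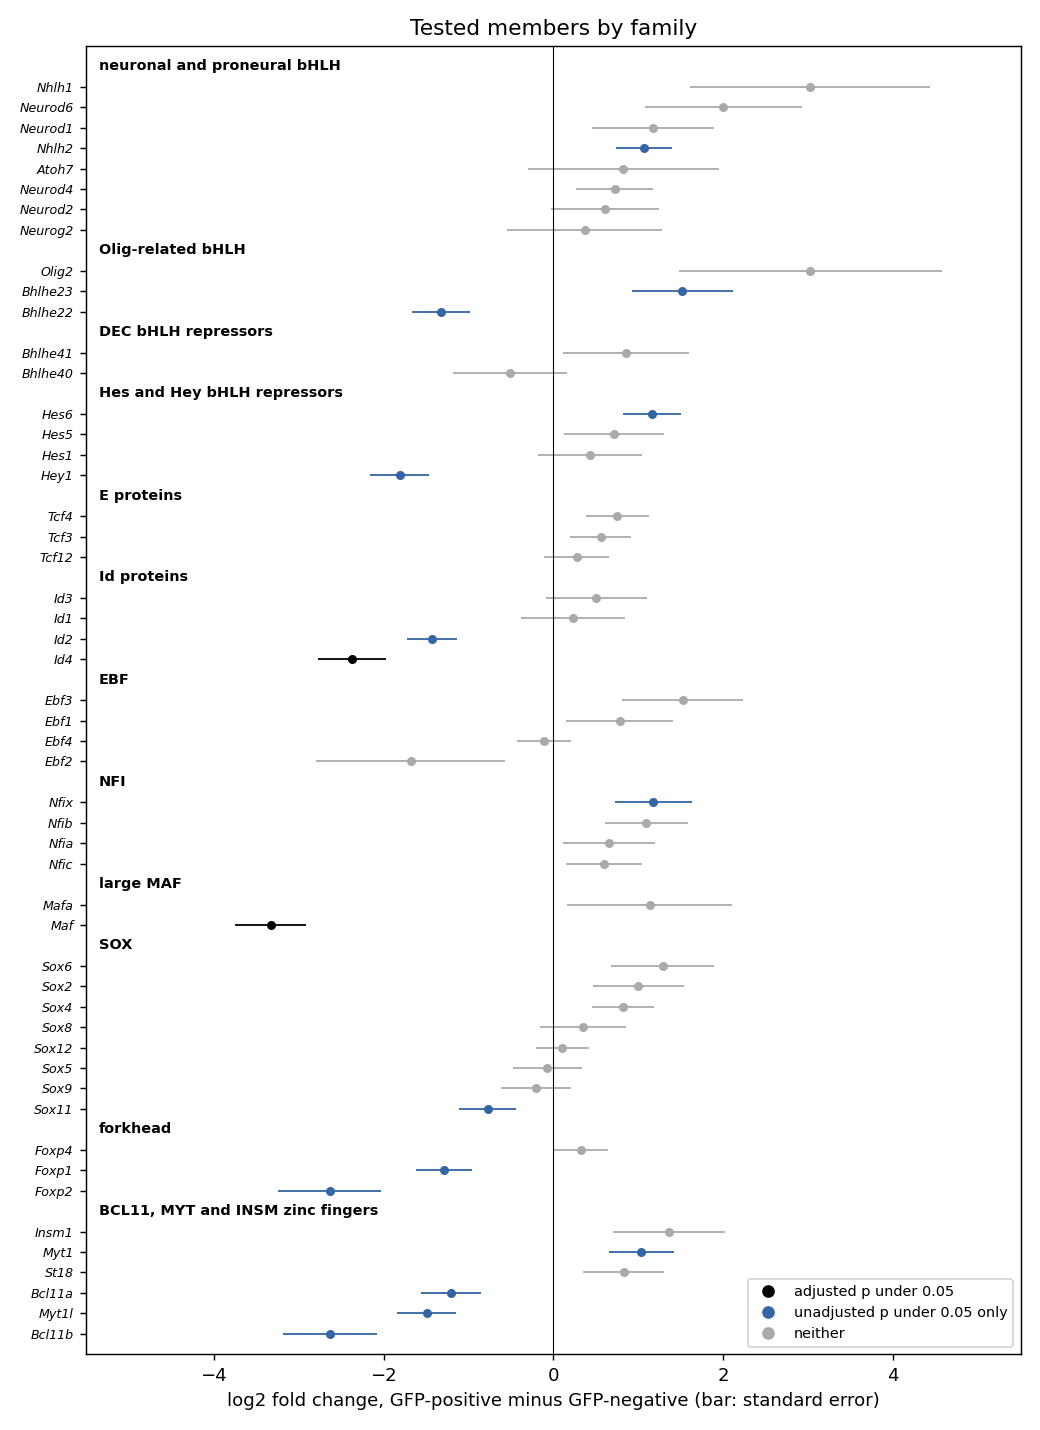
Log2 fold change of the 51 tested members, GFP-positive minus GFP-negative, with its standard error, grouped by family. Maf and Id4 (black) passed the adjusted threshold, both below 0, and every tested neuronal and proneural bHLH, E protein and NFI gene lies right of 0, as under each scaling run.

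Maf (ENSMUSG00000055435, chromosome 8, 115682942 to 115707794, minus strand, GRCm38), a basic leucine zipper factor known for its part in lens fibre differentiation, showed the greatest fall among the members. Maf had 6.19 and 7.72 CPM in GFP-positive cells, against 89.5 and 50.3 CPM in GFP-negative cells, so the fractions were far apart although the GFP-negative libraries differed. The log2 fold change of -3.33 ± 0.42 (standard error) passed, with an edgeR adjusted p of 0.0125. The GFP-negative library with the less rod RNA had the lower Maf value, so Maf did not run strictly opposite to the rod markers. Maf did not pass when GFP-negative replicate 6 was left out (edgeR adjusted p = 0.0711), nor without either GFP-positive library (0.058 without replicate 2 and 0.0823 without replicate 3). Mafa, a relative known from pancreatic beta cells, stood at 4.22 and 0.82 CPM in GFP-positive cells, against 0.908 and 1.40 CPM in GFP-negative cells, and these ranges overlapped. A group of 7 other MAF and BACH genes had none past the adjusted edgeR threshold and 1 past an unadjusted p under 0.05, the rod factor gene Nrl, which was higher.

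Id4 (ENSMUSG00000021379, chromosome 13, 48261228 to 48266026, plus strand), an inhibitor of E proteins, whose promoter is shown above, fell to 180.4 and 129 CPM in GFP-positive cells, against 643 and 964 CPM in GFP-negative cells. The log2 fold change of -2.38 ± 0.40 passed, with an edgeR adjusted p of 0.0342. Id4 did not pass with GFP-negative replicate 6 left out (0.179), nor without either GFP-positive library (0.146 without replicate 2 and 0.434 without replicate 3). It was also lost with no filter on low counts (edgeR adjusted p = 0.0506) and with a legacy quasi-likelihood fit (0.0951). Id2, a second inhibitor, had 41.4 and 39.9 CPM in GFP-positive cells, against 99.3 and 119.7 CPM in GFP-negative cells. The ranges lay well apart, with a log2 fold change of -1.43 ± 0.30, but the edgeR adjusted p was 0.0752. Id2 was called lower with a stricter filter on low counts (edgeR adjusted p = 0.0485) and with DESeq2 (adjusted p = 0.000929). It was not called in edgeR with RLE scaling (adjusted p = 0.056), upper-quartile scaling (0.0633) or library size as the only scaling (0.104). Nor was it in edgeR with no filter (adjusted p = 0.127) or the legacy fit (0.129), or with limma-voom (adjusted p = 0.0899). Id1 and Id3, the other inhibitors, had overlapping ranges. Log2 fold changes of the Id genes were negative in 2 of 4 with all libraries and in 4 of 4 when GFP-negative replicate 6 was left out. Id1 lay at 7.04 and 7.47 CPM in GFP-positive cells, against 9.11 and 3.10 CPM in GFP-negative cells. Id3 lay at 17.2 and 43.0 CPM in GFP-positive cells, against 31.8 and 10.3 CPM in GFP-negative cells.

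The E proteins, which Id proteins bind, had no call, and their log2 fold changes were positive in 3 of 3 under each scaling run and in 2 of 3 when GFP-negative replicate 6 was left out. Tcf3 had 77.3 and 68.3 CPM in GFP-positive cells, against 64.0 and 34.7 CPM in GFP-negative cells (edgeR adjusted p = 0.579). Tcf4 had 132 and 221 CPM in GFP-positive cells, against 126 and 83.4 CPM in GFP-negative cells (edgeR adjusted p = 0.454), and Tcf12 overlapped between the fractions (0.829). In Tcf3 GFP-negative replicate 6 stood well below the other libraries, and in Tcf4 the replicates numbered 2 were close. Summed per length, the 4 Id genes stood at 330.1 and 327 TPM in GFP-positive cells, against 925 and 1046 TPM in GFP-negative cells. The 3 E protein genes summed to 117 and 123 TPM in GFP-positive cells, against 102 and 48.4 TPM in GFP-negative cells. The ratio of the Id sum to the E protein sum was thus 2.81 and 2.65 in GFP-positive cells, against 9.03 and 21.6 in GFP-negative cells. Its size depends on the exonic lengths used, 27382 bases for Tcf4 and 4039 for Tcf3. Tcf3 gave most of the E protein sum in each library, although Tcf4 had more CPM in each. The ratio therefore does not show by itself that Id RNA exceeded E protein RNA. Id4 gave most of the difference in the Id sum, and GFP-negative replicate 6 had the lowest E protein sum.

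**Figure D3:**
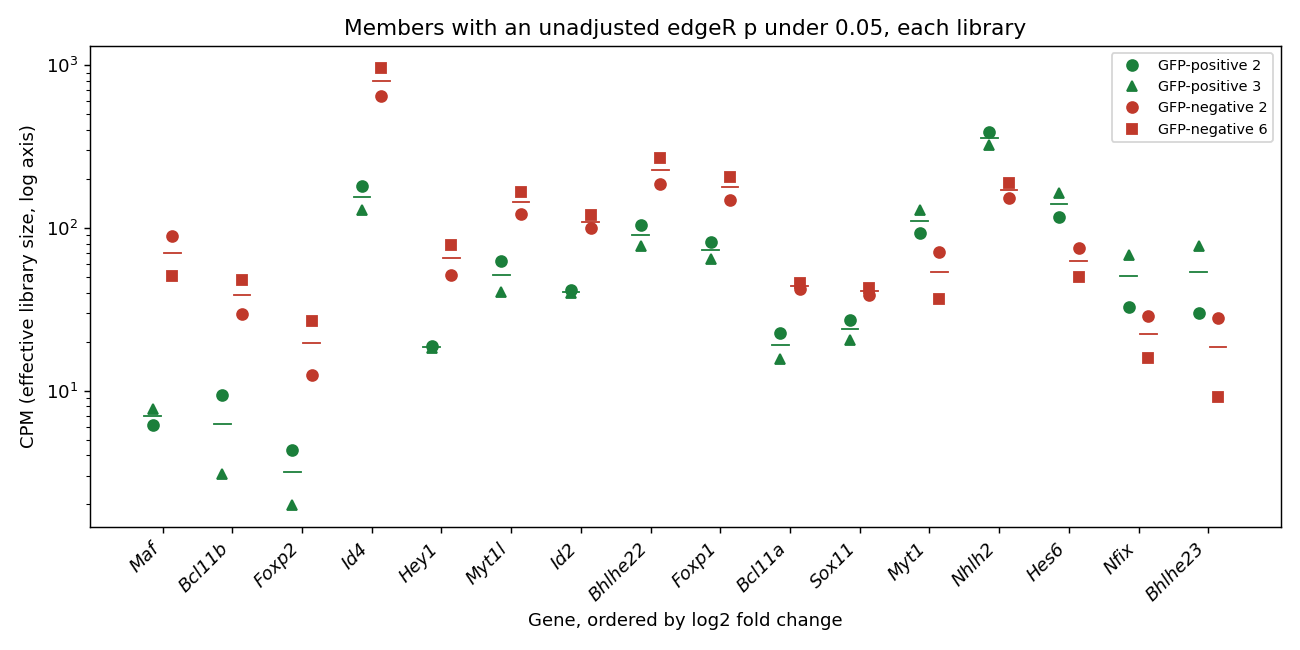
CPM (log axis) in each library of the 16 members with an unadjusted edgeR p under 0.05, ordered by log2 fold change, with GFP-positive libraries in green left of GFP-negative libraries in red; short lines are the means of 2 libraries. The 11 genes on the left, from Maf to Sox11, are lower in both GFP-positive libraries and the 5 on the right higher, and Maf and Id4 passed after adjustment.

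The neuronal and proneural bHLH genes had positive log2 fold changes in 8 of 8 tested, under each scaling run, with a median of 0.95, and none passed the adjusted edgeR threshold. With limma-voom, or when either GFP-negative replicate 6 or GFP-positive replicate 2 was left out, 7 of 8 were positive. One of them, Nhlh2, passed an unadjusted p under 0.05. Nhlh2, a factor of developing neurons, had 390.0 and 324 CPM in GFP-positive cells, against 152 and 188 CPM in GFP-negative cells. These ranges did not overlap and did not follow the rod markers, whose order within each fraction was the opposite (log2 fold change 1.07 ± 0.33, edgeR adjusted p = 0.231). DESeq2 called Nhlh2 higher (adjusted p = 0.0356).

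Neurod1, which acts in both photoreceptors and amacrine cells, differed more between the GFP-negative libraries than between the means of the fractions. It had 626 and 1139 CPM in GFP-positive cells, against 669 and 113 CPM in GFP-negative cells (edgeR adjusted p = 0.554). GFP-negative replicate 6, with the least rod RNA, was lowest, and GFP-positive replicate 3, with the most, was highest. Leaving out GFP-negative replicate 2 gave a log2 fold change of 2.91 for Neurod1, against 1.17 with all libraries. That fit had no replicate in GFP-negative cells, and the part of rod RNA in the Neurod1 values was not tested. Neurod4, a partner in amacrine differentiation, had 282 and 268 CPM in GFP-positive cells, against 244 and 89.9 CPM in GFP-negative cells (0.572). Again GFP-negative replicate 6 made most of the gap.

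Neurod6, a marker of the amacrine type that uses neither GABA nor glycine, was scarce, at 2.03 and 1.68 CPM in GFP-positive cells, against 0.622 and 0.279 CPM in GFP-negative cells. Its fractions were separate at 93 and 80 counts against 26 and 10 counts (edgeR adjusted p = 0.416). Neurod2, which marks some amacrine types including AII cells, stood between 2.71 and 8.14 CPM in all libraries and overlapped. Nhlh1, a close relative of Nhlh2, was near the floor, with 23 and 18 counts in GFP-positive cells and 2 in each GFP-negative library (edgeR adjusted p = 0.419). Factors of progenitors were low or not seen: Neurog2 had at most 7.90 CPM and Atoh7, needed for ganglion cells, at most 1.22 CPM. Ptf1a, which commits progenitors to amacrine and horizontal fates, had a single count in 1 library, GFP-negative replicate 6. In the other libraries its 0 allows up to 3 counts, which is 0.0631 to 0.0717 CPM by library.

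The 2 Bhlhe factors of the Olig-related group had log2 fold changes of opposite sign. Bhlhe22, needed for certain GABAergic amacrine cells and cone bipolar cells, had 104 and 77.9 CPM in GFP-positive cells, against 185 and 271 CPM in GFP-negative cells. The fractions were apart (log2 fold change -1.32 ± 0.34), short of the adjusted threshold (edgeR adjusted p = 0.152), while DESeq2 called it lower (adjusted p = 0.0102). Bhlhe23, needed for rod bipolar cells, whose promoter is shown above, had 29.9 and 77.1 CPM in GFP-positive cells, against 28.0 and 9.16 CPM in GFP-negative cells. Replicates 2 of both fractions were nearly level, and the 4 libraries stood in the order of the rod markers (edgeR adjusted p = 0.334). Its log2 fold change was 1.52 with all libraries, 0.68 when GFP-positive replicate 3 was left out, and 2.49 when GFP-negative replicate 2 was. Bipolar markers also stood in that order: 12 genes, none at 0 in any library, summed to 1374 and 1931 CPM in GFP-positive cells, against 1163 and 510.3 CPM in GFP-negative cells, and their part in the Bhlhe23 values was not tested. Olig2, a progenitor and glial factor, had 4.77 CPM in GFP-positive replicate 3 and at most 0.311 CPM elsewhere.

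Hey1 and Hes6, grouped here in the Hes and Hey family, also differed in direction. Hey1, a Notch target, had 18.8 and 18.2 CPM in GFP-positive cells, against 51.3 and 78.6 CPM in GFP-negative cells. The GFP-positive libraries agreed closely and both lay below (log2 fold change -1.81 ± 0.35, edgeR adjusted p = 0.0553). It was called lower in edgeR with RLE scaling (adjusted p = 0.0372), upper-quartile scaling (0.0452) and a stricter filter on low counts (0.0346). DESeq2 also called it lower (adjusted p = 0.000287). It was not called in edgeR with library size as the only scaling (adjusted p = 0.0709), no filter (0.104) or the legacy fit (0.116). Nor was it with limma-voom (adjusted p = 0.0907). With a library left out, its log2 fold change ranged from -2.145 to -1.47. Hes6, which opposes Hes1 and favours neuronal differentiation, had 117 and 164 CPM in GFP-positive cells, against 74.9 and 50.3 CPM in GFP-negative cells (log2 fold change 1.16 ± 0.34, edgeR adjusted p = 0.209), in the order of the rod markers.

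Hes5 and Hes1, Notch effectors that hold progenitors back from becoming neurons and act in Müller glia, overlapped. Hes5 had 43.5 and 40.4 CPM in GFP-positive cells, against 42.0 and 8.88 CPM in GFP-negative cells, so that only GFP-negative replicate 6 stood apart. Hes1 had 10.98 and 13.5 CPM in GFP-positive cells, against 14.2 and 3.77 CPM in GFP-negative cells. The 12 cycling progenitor markers had the same library order as the rod markers, with sums of 604 and 759.9 CPM in GFP-positive cells, against 480.2 and 221 CPM in GFP-negative cells; 1 of them was at 0 in GFP-positive replicate 3 and 1 in GFP-negative replicate 2. The part of progenitor RNA in the Hes values was not tested. Among 21 Notch ligands, receptors and partners, none passed the adjusted edgeR threshold, with 2 higher and 1 lower at an unadjusted p under 0.05 (median log2 fold change 0.65).

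The circadian repressor genes Bhlhe40 and Bhlhe41 were low. Bhlhe40 had 2.19 and 5.11 CPM in GFP-positive cells, against 6.74 and 3.63 CPM in GFP-negative cells. Bhlhe41 had 14.3 and 14.4 CPM in GFP-positive cells, against 13.9 and 1.76 CPM in GFP-negative cells, where GFP-negative replicate 6 stood alone. Of 37 further bHLH genes, 15 were tested, none passed the adjusted edgeR threshold and 3 were higher at an unadjusted p under 0.05 (median log2 fold change 0.79).

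EBF factors act in ganglion, bipolar and amacrine differentiation, and none of the 4 passed. Ebf4, the most abundant per length, was nearly level, at 48.5 and 36.5 CPM in GFP-positive cells, against 46.1 and 45.8 CPM in GFP-negative cells (log2 fold change -0.11 ± 0.32). Ebf3, also known from amacrine cells that lack GABA and glycine, had 3.50 and 9.53 CPM in GFP-positive cells, against 2.46 and 2.07 CPM in GFP-negative cells (edgeR adjusted p = 0.425). Its ranges were separate, narrowly so in the replicates numbered 2. Ebf1 had 7.66 and 13.6 CPM in GFP-positive cells, against 9.32 and 2.93 CPM in GFP-negative cells. Ebf2 had 59 and 0 counts in GFP-positive cells, against 64 and 93 counts in GFP-negative cells; the 0 allows up to 0.0631 CPM.

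NFI factors work in late-born retinal cells such as bipolar cells and Müller glia, and all 4 had positive log2 fold changes in each fit run (median 0.88) with none past the adjusted edgeR threshold. Nfix had 32.8 and 68.6 CPM in GFP-positive cells, against 28.8 and 15.97 CPM in GFP-negative cells (log2 fold change 1.18 ± 0.45, unadjusted p = 0.0302, edgeR adjusted p = 0.332), and 0.55 on the log2 scale with GFP-positive replicate 3 left out. Nfib had 51.5 and 85.6 CPM in GFP-positive cells, against 47.0 and 17.1 CPM in GFP-negative cells (edgeR adjusted p = 0.402). Both followed the library order of the rod markers, and in both the replicates numbered 2 were close. Nfic, at 96.9 and 129 CPM in GFP-positive cells, against 109 and 40.8 CPM in GFP-negative cells, overlapped, as did Nfia. The 12 Müller glia markers, which included none at 0 in any library, summed to 1101 and 1350 CPM in GFP-positive cells, against 2006 and 2343 CPM in GFP-negative cells. Their most abundant gene was Dkk3, at 244 and 131 CPM in GFP-positive cells, against 1008 and 1577 CPM in GFP-negative cells, and without it the sums of the other 11 overlapped, at 857 and 1220 CPM in GFP-positive cells, against 998 and 765 CPM in GFP-negative cells. Of the 12, 8 had positive log2 fold changes (median 0.12). The part of Müller glia RNA in the NFI values was not tested.

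Among SOX factors none passed. Sox4, Sox11 and Sox12 are the SoxC genes, which promote neuronal differentiation, and their values did not run alike. Sox4 had 829 and 1075 CPM in GFP-positive cells, against 542 and 539 CPM in GFP-negative cells, with ranges apart (log2 fold change 0.82 ± 0.37, unadjusted p = 0.0547, edgeR adjusted p = 0.408). An annotated gene on the opposite strand, Gm26735, covers 54.6% of Sox4's exonic bases, and as the strand setting of the counts is not given, their reads cannot be told apart. The same limit holds for Ptf1a (40.4% of exonic bases), Hes5 (31.8%), Bhlhe41 (19.0%) and Sox8 (10.6%), the other members with at least 10% covered by a gene on the opposite strand. Sox11, whose promoter is shown above, had 27.1 and 20.6 CPM in GFP-positive cells, against 38.6 and 42.9 CPM in GFP-negative cells (-0.77 ± 0.34, unadjusted p = 0.0484, edgeR adjusted p = 0.392). Sox12 overlapped, at 151 and 117 CPM in GFP-positive cells, against 135 and 114 CPM in GFP-negative cells.

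Sox2, a progenitor factor that also marks Müller glia and some amacrine cells, had 9.36 and 8.18 CPM in GFP-positive cells, against 3.63 and 5.17 CPM in GFP-negative cells (edgeR adjusted p = 0.494). Sox9, a Müller glia factor, had 41.0 and 45.7 CPM in GFP-positive cells, against 69.3 and 30.1 CPM in GFP-negative cells, and its relative Sox8 also overlapped. Sox6 had 6.54 and 12.6 CPM in GFP-positive cells, against 5.12 and 2.68 CPM in GFP-negative cells (edgeR adjusted p = 0.428), in the rod marker order, while its SoxD partner Sox5 overlapped at 15.8 to 25.6 CPM over the 4 libraries. Of 11 further SOX genes 4 were tested, and none passed an unadjusted p under 0.05 in edgeR.

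The FOXP repressors split. Foxp2, best known from vocal learning in humans and songbirds, had 4.33 and 1.98 CPM in GFP-positive cells, against 12.4 and 26.8 CPM in GFP-negative cells (log2 fold change -2.63 ± 0.61, edgeR adjusted p = 0.101). Foxp1 had 82.0 and 64.1 CPM in GFP-positive cells, against 149 and 207 CPM in GFP-negative cells (-1.29 ± 0.33, edgeR adjusted p = 0.145). Both GFP-positive libraries lay below both GFP-negative libraries for these genes, and DESeq2 called both lower (DESeq2 adjusted p = 0.00144 for Foxp2 and 0.0101 for Foxp1). Foxp4 had 36.0 and 34.2 CPM in GFP-positive cells, against 29.2 and 27.1 CPM in GFP-negative cells, a small gap (edgeR adjusted p = 0.743). Foxn4, which opens the amacrine fate in progenitors, had 50 counts in GFP-positive replicate 2 and 0 in the other 3 libraries, where 0 allows up to 0.0631 to 0.0838 CPM. Of 40 further forkhead genes 17 were tested, none passed the adjusted edgeR threshold, and 2 were lower at an unadjusted p under 0.05.

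The BCL11 zinc finger genes had lower values in GFP-positive cells. Bcl11b, also called Ctip2 and known from corticospinal neurons, had 9.45 and 3.09 CPM in GFP-positive cells, against 29.8 and 48.0 CPM in GFP-negative cells (log2 fold change -2.63 ± 0.55, edgeR adjusted p = 0.0763). It was called lower with RLE scaling (edgeR adjusted p = 0.0427) and with DESeq2 (adjusted p = 0.000481). It was not called in edgeR with upper-quartile scaling (adjusted p = 0.0506), library size as the only scaling (0.0828) or a stricter filter (0.0616). Nor was it in edgeR with no filter (adjusted p = 0.125) or the legacy fit (0.201), or with limma-voom (adjusted p = 0.103). The log2 fold change was -3.67 without GFP-positive replicate 2 and -2.05 without GFP-positive replicate 3. Bcl11a, its relative, had 22.6 and 15.5 CPM in GFP-positive cells, against 42.0 and 46.1 CPM in GFP-negative cells (-1.21 ± 0.35, edgeR adjusted p = 0.202), and DESeq2 called it lower (adjusted p = 0.0463). Both BCL11 genes were thus separate between the fractions and lower in GFP-positive cells.

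Myt1l, which represses non-neuronal genes in neurons, had 62.4 and 40.3 CPM in GFP-positive cells, against 121 and 167 CPM in GFP-negative cells (log2 fold change -1.49 ± 0.35, edgeR adjusted p = 0.106), and DESeq2 called it lower (adjusted p = 0.00462). Its relative Myt1, known in frogs to promote neuron formation, lay the other way, at 92.6 and 128 CPM in GFP-positive cells, against 70.9 and 36.8 CPM in GFP-negative cells (1.04 ± 0.38, edgeR adjusted p = 0.313). The third family gene, St18, overlapped. Insm1, a zinc finger of newborn neurons and endocrine cells, had 215 and 269 CPM in GFP-positive cells, against 161 and 27.6 CPM in GFP-negative cells. GFP-negative replicate 6 again stood far below (edgeR adjusted p = 0.442). Leaving out GFP-negative replicate 2 gave a log2 fold change of 3.07 for Insm1, against 1.36 with all libraries. That fit had no replicate in GFP-negative cells.

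Many members shared the order of libraries seen in the rod markers or its reverse. With GFP-positive replicate 3 highest, then GFP-positive replicate 2, GFP-negative replicate 2 and GFP-negative replicate 6, there were 11 of 51 members (21.6%), where 10.4% of all genes tested had this order. They were Bhlhe23, Bhlhe41, Hes6, Tcf4, Ebf3, Nfib, Nfix, Sox4, Sox6, Myt1 and Insm1, with slight steps within a fraction for Sox4 (GFP-negative) and Bhlhe41 (GFP-positive). The reverse order was held by 11 members, where 11.3% of all genes tested had it: Bhlhe22, Hey1, Id2, Id4, Ebf2, Sox11, Foxp1, Foxp2, Bcl11a, Bcl11b and Myt1l. Steps between the GFP-positive libraries were slight for Hey1 (1.03-fold) and Id2 (1.04-fold). Of the 11 members lower at an unadjusted p under 0.05, 10 had that reverse order, the exception being Maf, and 57.4% of the 1315 such genes in the whole table had it. The summed amacrine markers given above stood in the same reverse order, and 11 of those 13 genes had negative log2 fold changes, 5 of them past the adjusted edgeR threshold. What part rod or amacrine RNA content plays in these values was not tested.

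**Figure D4:**
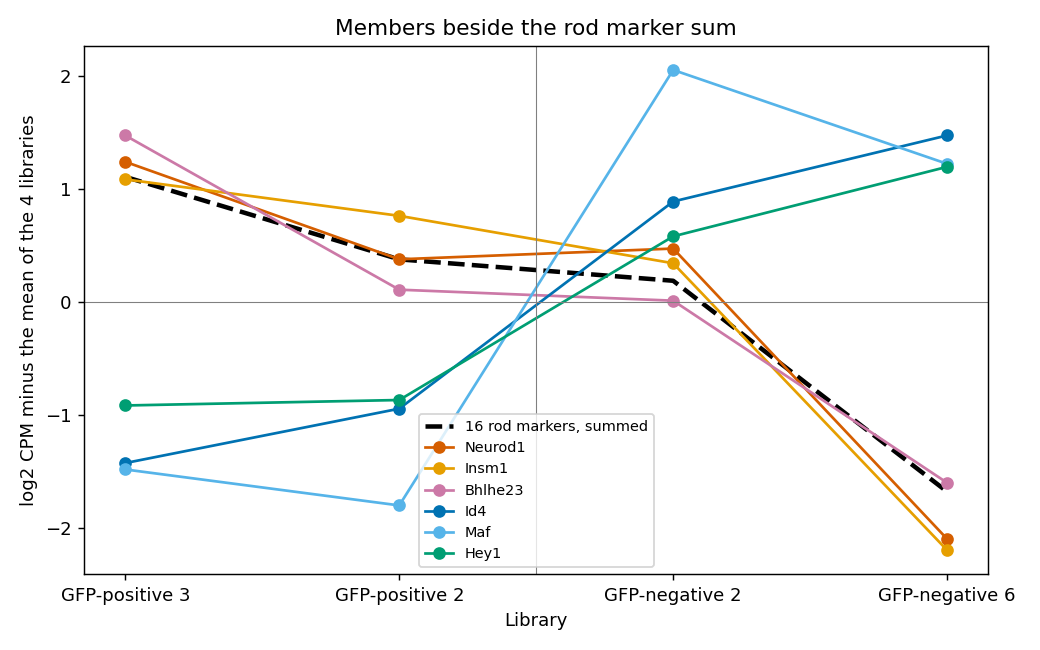
Log2 CPM of 6 members and of the summed 16 rod markers (dashed), each minus its mean over the 4 libraries, with the GFP-positive libraries left of the grey line. Neurod1, Insm1 and Bhlhe23 lie close to the rod marker line, and Id4 and Hey1 run opposite to it, though Hey1 is nearly level between the GFP-positive libraries. Maf is lower in GFP-negative replicate 6 than in GFP-negative replicate 2.

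Spread within a fraction limited what could be told apart. Between the GFP-positive libraries 13 of 51 tested members differed by more than 2-fold (median 1.34-fold), among them Ebf2 by at least 20.5-fold with its 0 set to 3 counts, and between the GFP-negative libraries 19 did (median 1.80-fold). Atoh7, Bhlhe41, Neurod1 and Insm1 differed most between the GFP-negative libraries, by 15.4-fold, 7.91-fold, 5.94-fold and 5.81-fold, and all were lower in replicate 6. By contrast Id2 differed by 1.20-fold, Sox11 by 1.11-fold and Bcl11a by 1.10-fold there. Leaving out 1 library moved the fold change by more than 1.5 times for 17 of the 38 members given with full values. For Foxp2 the log2 fold change was -1.98 when GFP-negative replicate 6 was left out and -3.33 when GFP-positive replicate 2 was, and for Ebf3 it was 0.62 without GFP-positive replicate 3, against 1.52 with all libraries. The others included Neurod4 (1.56), Bhlhe41 (2.97), Hes5 (2.18), Nfib (1.95) and Nfic (1.41), each without GFP-negative replicate 2.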

How the data were processed

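The authors deposited a table of raw counts per Ensembl gene, with 1 column for each of 4 libraries and a different total in each, per the file headers. Per the submitters' processing notes, Trimmomatic, STAR 2.7.3a, MultiQC, limma and build GRCm38 were used; the sources used here do not give their roles, the counting tool or the strand setting. Libraries were made with Takara's SMART-Seq kit, per the labels' protocols. A second, scaled form of the counts was not used here. Other replicates of the stated 4, from 3 litters, were not analysed here. The series text has each animal giving a sample of each fraction. Whether replicate 2 is the same animal in both is not stated, and the fit was unpaired. Its p-values set each difference against a spread estimated from these libraries and from all genes.

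Counts were tested in R 4.3.3 with edgeR 4.0.16, using TMM scaling, filterByExpr (minimum count 10, minimum total 15), glmQLFit (robust, the edgeR 4 method) and glmQLFTest, with Benjamini-Hochberg adjustment over 17940 genes and a call at 0.05. There were 2 residual degrees of freedom and a common biological coefficient of variation of 55.4%. A standard error is the size of the log2 fold change divided by the root of its F statistic. TPM used union exonic lengths from GENCODE mouse release 21, found for 55230 genes. A count of 0 was given a floor of 3 counts, covering counting error only. Members and lists were chosen with earlier results of these data known. Every member is accounted for; full values are given for those past an adjusted or unadjusted p of 0.05, those with separate fractions that differ by 1 or more on the log2 scale, and the 2 most abundant per family. Other genes named here were chosen after their values were seen or lead a marker list. Alternatives were other scalings and filters, DESeq2 1.42.0, limma-voom 3.58.1, a fit without robust estimation, rod markers left out, and leaving out each library; a legacy quasi-likelihood fit was added after seeing the data. The fits were tested on simulated data.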

Additional observations from a re-analysis of the deposited data

How the results depend on the processing

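No paired analysis was possible because the fractions share a single replicate number, 2. A fit with 1 library left out had no replicate in that fraction. Its calls rest on the spread in the other fraction and over all genes. The count of all genes higher in GFP-positive cells was 42 as reported, 24 with no filter on low counts, 208 with DESeq2, 17 with limma-voom and 13 with the legacy quasi-likelihood fit, and 0 to 106 when 1 library was left out. Lower genes numbered 156, and 82, 579, 75 and 35 under the same alternatives, and 1 to 230 when 1 library was left out. Members higher were 0, 1 with DESeq2 (Nhlh2) and 0 to 2 when 1 library was left out, the 2 being Neurod1 and Insm1 without GFP-negative replicate 2. Members lower were 2 as reported, 4 with RLE scaling, 4 with a stricter filter, 10 with DESeq2, 1 with no filter, 1 with the legacy fit and 0 to 3 when 1 library was left out. Beside these, all genes lower numbered 229 of 17940 tested with RLE scaling, 190 of 11503 with the stricter filter and 579 of 17940 with DESeq2. With no filter they numbered 82 of 27925. Members whose fractions did not overlap were 30, and 27 to 31 under other scalings and filters. Library size as the only scaling moved the median log2 fold change of all genes to 0.21, against 0.04, and turned Ebf4 to 0.049. Among members picked by the rule for full values, leaving out 1 library turned the sign of 4. Their ranges were -2.66e-05 to 2.18 for Hes5, -0.35 to 0.073 for Ebf4, -0.50 to 1.88 for Mafa and -0.11 to 0.27 for Sox12. No other member picked by that rule changed direction under the alternatives run, but some members outside it did. Positive log2 fold changes fell from 2 to 0 of 4 Id genes when GFP-negative replicate 6 was left out. For Hes and Hey genes they fell from 3 to 1 of 4. The cause of these shifts was not tested. With 2 libraries per fraction and a biological variation of 55.4%, small differences were not detectable, and low genes such as Nhlh1, Atoh7 and Ebf2 rest on few counts.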
